A study of Mus musculus with 13 samples.

Results

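The Gnas cluster on distal mouse chromosome 2 was described here by the CpG methylation of its control regions, read by reduced representation bisulfite sequencing (RRBS), an assay that samples the CpG-rich fragments released by a restriction enzyme. Its members were all CpGs on chromosome 2 from 174100001 to 174175000 (mm9) with at least 1 read in any of the 13 libraries. These were 694 of the 3340630 CpGs read in the series, and a library read between 214 and 440 of them. Levels are given as methylated reads in percent of all reads, summed over the CpGs of a stretch. The libraries were of feeder-depleted mouse iPSCs, fibroblasts and sorted cells taken during reprogramming. Female iPSCs were labelled XaXa, which denotes a pair of active X chromosomes (libraries 7 and 8), or XO, with a single X (libraries 3, 5, 6 and 9). Male iPSCs (libraries 1, 2 and 4) and male embryonic fibroblasts (MEF, libraries 4 and 5) made up the other groups with replicates. Male cells sorted for SSEA1, an antigen on the surface of pluripotent mouse cells, gave 1 negative and 1 positive library. The labels give no strain, reprogramming agent, day or passage, and do not say which libraries came from separate lines or cultures, so the p-values below measure the spread between libraries, which may be technical.

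Gnas encodes the stimulatory G protein alpha subunit, which couples hormone receptors to adenylyl cyclase. The cluster is imprinted: its overlapping transcripts start at separate promoters, and several are made from the copy of a single parent. Nesp, the most upstream, is made from the maternal copy, and its promoter region carries methylation on the paternal copy that is acquired after fertilisation. Gnasxl, which encodes a longer form of the G protein subunit, and Nespas, a noncoding antisense transcript that runs across Nesp, are made from the paternal copy, and the region around their starts is methylated on the maternal copy from the oocyte on. Exon 1A, just upstream of Gnas exon 1, is a second region methylated in the oocyte, while the promoter at Gnas exon 1 itself carries no methylation imprint. With one copy methylated and the other not, an intact imprint is known to read at an intermediate level.

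The cluster was divided into 5 stretches. The first, here the Nesp segment (174100001 to 174117000), held 149 of the CpGs. The Nespas/Gnasxl window (174117001 to 174127000) held 219. The exon 1A window (174148001 to 174157000) held 251, and the stretches between and after these windows held 28 and 47. No annotation of mm9 was used, and the windows were placed by the positions in the rule above. Within the exon 1A window, the tiles from 174153001 to 174155000 (98 CpGs, here the exon 1A core) were also separated from the Gnas exon 1 tiles (174155001 to 174157000, 142 CpGs), since the latter were unmethylated in every library and took a different share of reads in each group. The cluster had 624 reads in XO 9 and 21661 in XaXa 8, the extremes of the 13 libraries, so levels of XO 9 are the least certain and those of XaXa 8 the most.

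The promoters that frame the cluster were located among the CpGs read. RefSeq (GRCm38.p6) lists 4 promoters of Gnas. Those of the most upstream start, which is that of Nesp, and of the most downstream start, which is that of Gnas exon 1, were found in the mm9 tables because the 5-base sequence given at each CpG matched the RefSeq sequence at 14 of 14 and 34 of 34 positions. The start sites fell at 174109821 and 174155507 on the plus strand. The other 2 starts were not placed. The 250 bases upstream of each start are shown to let the CpGs behind the lowest levels be seen, with capitals marking the CpGs that were read.
Nesp promoter, chr2:174284070-174284319 (GRCm38.p6, plus strand): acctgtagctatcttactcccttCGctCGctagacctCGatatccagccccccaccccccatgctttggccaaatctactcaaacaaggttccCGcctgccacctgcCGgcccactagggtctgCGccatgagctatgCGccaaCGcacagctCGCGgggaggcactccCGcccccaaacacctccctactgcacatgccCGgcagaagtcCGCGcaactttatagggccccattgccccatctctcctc
Gnas exon 1 promoter, chr2:174329756-174330005 (GRCm38.p6, plus strand): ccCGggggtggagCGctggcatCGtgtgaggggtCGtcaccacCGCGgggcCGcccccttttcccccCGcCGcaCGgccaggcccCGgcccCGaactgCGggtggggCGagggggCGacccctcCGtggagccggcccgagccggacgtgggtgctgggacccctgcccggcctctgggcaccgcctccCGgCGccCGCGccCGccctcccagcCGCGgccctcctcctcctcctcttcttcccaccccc
A stretch of the exon 1A core and one of the Nespas/Gnasxl window were joined from the 5-base sequences of neighbouring CpGs in the deposited tables. They are shown because reads from every library covered them, and capitals again mark CpGs.
Exon 1A core, chr2:174154235-174154247 (mm9, plus strand): aCGcCGggCGCGa
Nespas/Gnasxl, chr2:174123509-174123522 (mm9, plus strand): ggCGacCGaacCGg

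The CpGs of the Nesp promoter carried little methylation in iPSCs, and the few MEF reads there carried none. Of 543 reads in the 9 iPSC libraries, 13 were methylated, a level of 2.39% (95% Wilson interval 1.40 to 4.05). In the MEF libraries 0 of 31 reads were methylated, which allows a level of up to 9.68% if reads are independent. A read over several CpGs counts at each, so the limit is too low. The SSEA1 libraries had no read in these bases. At the Gnas exon 1 promoter 1 of 585 reads in iPSCs and 1 of 14 in MEF was methylated. The hexamer TGCCGC, which the zinc finger protein ZFP57 binds when methylated at known imprinted regions, was searched on both strands. It was absent from the 4 Gnas promoters and from 30 joined stretches of at least 12 bases, and present in 11.6% of 32851 RefSeq promoters. That describes only these bases.

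Several libraries stood apart from their labels, and all are called by label here. Read depth on X relative to male iPSCs was 1.45 and 1.38 in XaXa 7 and 8, but also 1.34, 1.21 and 1.38 in XO 3, 5 and 9, against 1.02 in XO 6. MEF 5 had 1.28 times the male iPSC depth on X and a Y share of 0.0219% of autosomal reads, against 0.0913% in MEF 4. Chromosome 2 itself was read evenly, at 0.965 to 1.03 of the male iPSC depth. At the promoter of Pou5f1, a pluripotency gene methylated in fibroblasts, levels were 5.86% to 15.7% in XaXa and male iPSCs and 61.5% to 66.7% in MEF and SSEA1 cells. In the XO libraries they were 66.1%, 36.1%, 37.3% and 24.1% in the order 3, 5, 6 and 9, so XO 3 was at the fibroblast level there. The window set for Nanog had no reads.

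**Figure D1:**
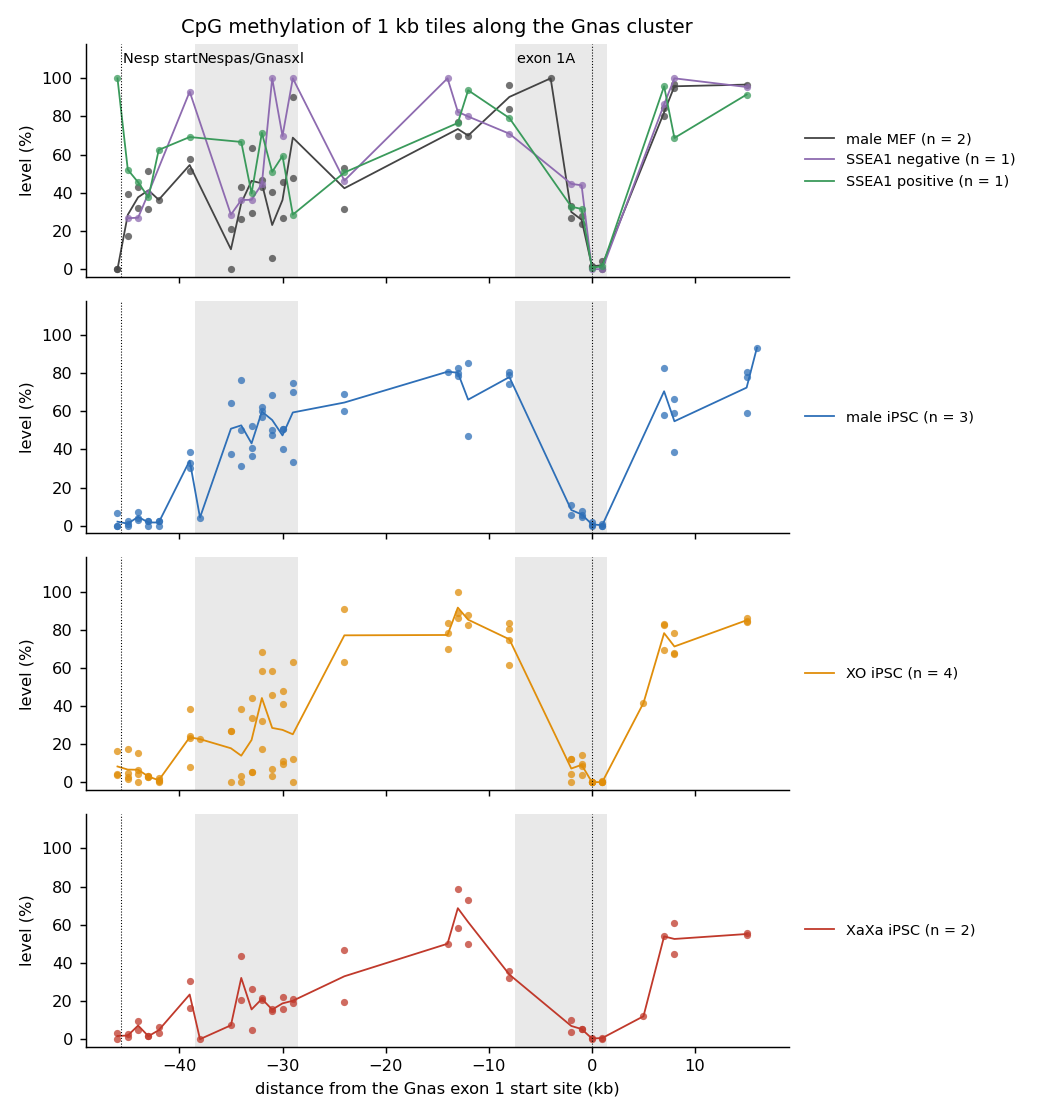
CpG methylation level (%, y axis) of 1 kb tiles against the distance from the Gnas exon 1 start (kb, x axis), for tiles and libraries with at least 10 reads. Points are libraries, lines join group means (for each SSEA1 group its 1 library), shading marks the Nespas/Gnasxl and exon 1A windows, and dotted lines mark the Nesp and Gnas exon 1 starts. The 3 tiles from 174110001 to 174113000 and those of the exon 1A core were intermediate in MEF and SSEA1 cells and low in all 3 iPSC groups, while the Nespas/Gnasxl tiles stayed intermediate in male iPSCs.

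The comparison of iPSCs with fibroblasts asks how the cluster differed between the ends of reprogramming. The Nesp segment and the exon 1A core were low in all 9 iPSC libraries and intermediate in both MEF libraries, whatever the sex label, whereas the Nespas/Gnasxl window was intermediate in male iPSCs, above both MEF libraries. Gnas exon 1 was unmethylated throughout.

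At the Nesp segment the level was 37.4% in MEF 4 and 39.0% in MEF 5. Among iPSCs it was 6.32% and 3.97% in XaXa 7 and 8, 5.11%, 9.81%, 4.90% and 5.99% in XO 3, 5, 6 and 9, and 4.78%, 2.72% and 5.68% in male iPSC 1, 2 and 4. The highest iPSC library thus lay far below the lower MEF library. The means were 5.47% ± 1.96 (SD, n = 9) and 38.2% ± 1.18 (SD, n = 2), a difference of -32.7 points (exact two-sided permutation p = 0.0182, the smallest that 55 splits allow). The test of this segment was added after the data were seen, so its p is no separate support. Of all 45146 tiles tested, 32.5% likewise had every iPSC library below both MEF libraries, so this order alone is common in the genome. Among the 5051 tiles that, like these, lay between 10% and 60% in both MEF libraries it was 36.1%, and 29.3% of those had a mean iPSC level under 10%.

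The difference was read over the body of the segment. In the tile that holds the Nesp start, MEF 4 and 5 were at 0% from 21 and 10 reads. The SSEA1 positive library was at 100% there from 15 reads. These reads are too few to tell the start from the body. In the tile from 174110001 to 174111000, just after the Nesp start, MEF 4 and 5 were at 17.5% and 39.5% and all iPSCs averaged 3.80% ± 5.28 (SD, n = 9), with XO 9, at 46 reads, the highest at 17.4%. The tile from 174111001 to 174112000 was at 32.0% and 43.3% in MEF, and iPSC libraries lay between 0% and 15.6%. In the next tile, to 174113000, MEF were at 51.3% and 31.4%, and iPSC libraries between 0% and 3.39%. In the quasi-binomial model, whose dispersion was moderated with limma and whose p-values were adjusted by Benjamini-Hochberg over all 45146 tiles, these 3 tiles were lower in male iPSCs than in MEF, with differences of -27.4, -33.0 and -39.6 points (adjusted p = 8.41e-05, 0.00146 and 2.20e-05). The single CpGs of the segment, drawn from the same reads, showed how these levels arose. Of 34 CpGs with at least 10 reads in MEF 5, 31 lay between 20% and 80% and 3 below 20%. Below 20% were 76 of 77 in XaXa 8, 63 of 67 in XO 6 and 48 of 53 in male iPSC 4. Farther on, from 174116001 to 174117000, next to the Nespas/Gnasxl window, the iPSC mean was higher at 27.1% ± 10.2 (SD, n = 9), beside 57.6% and 51.5% in MEF 4 and 5. That tile was not tested because XO 9 had 12 reads.

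At the exon 1A core the levels were 24.8% in MEF 4 and 27.9% in MEF 5. They were 5.60% and 4.85% in XaXa 7 and 8, 7.93%, 10.1%, 14.1% and 4.17% in XO 3, 5, 6 and 9, and 5.04%, 5.36% and 7.52% in male iPSC 1, 2 and 4. No iPSC library reached either MEF library, and XO 6 was the highest of them. That order was shared by 32.5% of all tiles, and by 36.1% of those at 10% to 60% in both MEF libraries. The means of 7.18% ± 3.19 (SD, n = 9) and 26.3% ± 2.14 (SD, n = 2) differed by -19.2 points (exact two-sided permutation p = 0.0182, the smallest possible). The core was chosen after the levels were seen, by setting aside tiles unmethylated in every library, so this p is no separate support. The whole exon 1A window adds the unmethylated exon 1 tiles and the thinly read tiles from 174150001 to 174153000. Over it the difference was -20.1 points (exact permutation p = 0.0182). Its size depended on the weighing: it was -12.6 points as an unweighted mean over CpGs with at least 5 reads and -33.0 with equal weight to each tile, each with the same p. The equal weight took in MEF tiles at 100% from 6, 12 and 8 reads, where no iPSC library had more than 8. Over the core alone that weighing gave 28.6% and 27.3% in MEF 4 and 5, and 4.22% to 13.4% in iPSC libraries. In the tile from 174154001 to 174155000, male iPSCs were lower than MEF, with a difference of -19.9 points (limma-moderated model, adjusted p = 2.31e-05).

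The 4 CpGs of the exon 1A sequence shown above had together at least 18 reads in each library, with a read counted at each CpG it covers. Male iPSC 2 had 6 reads at each of those at 174154239, 174154243 and 174154245. The 4 CpGs averaged 23.7% in MEF, with both libraries between 23.6% and 23.9%, from 1190 reads counted in this way. In XaXa these CpGs were at 2.41% and 5.61%, in XO between 5% and 12.1%, and in male iPSCs between 0% and 5.61%. The SSEA1 negative and positive cells were at 35.7% and 28.2% over these CpGs. The iPSC values thus sat below those of MEF at these neighbouring CpGs, which are part of the core and no separate observation. The MEF value was short of the 50.4% to 54.3% that male iPSCs held at Nespas/Gnasxl.

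Downstream, the Gnas exon 1 tiles, which hold the promoter of the G protein subunit itself, were at most 2.17% (MEF 4) in the 13 libraries, with an iPSC mean of 0.425% ± 0.480 (SD, n = 9). The step from the exon 1A core to exon 1 was therefore present in every MEF and SSEA1 library within neighbouring tiles.

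**Figure D2:**
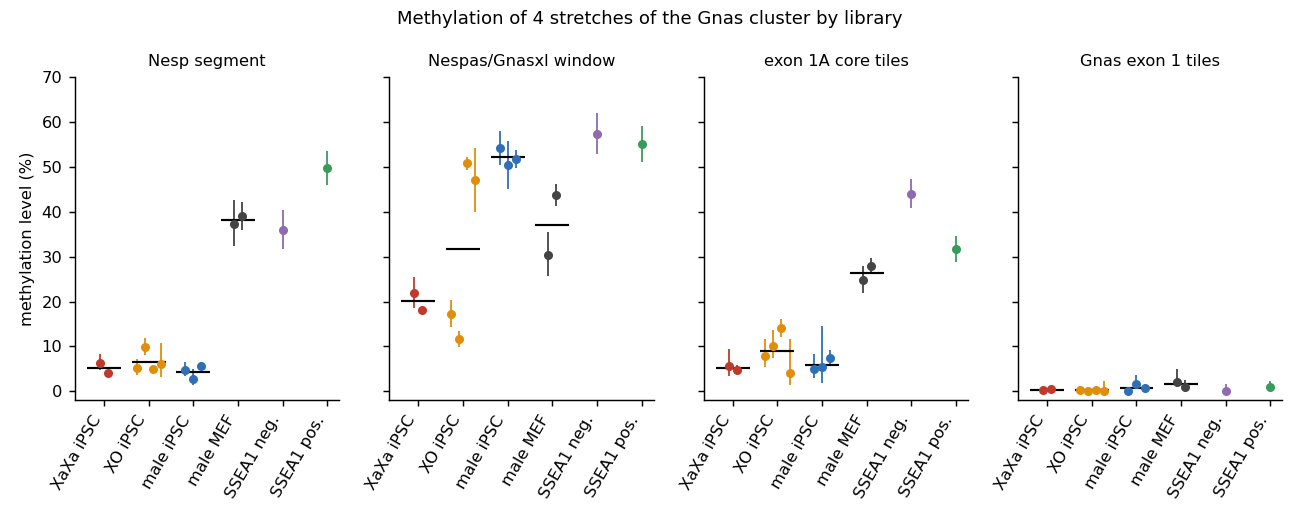
Methylation level (%, y axis) of 4 stretches of the cluster in each library (points, with 95% Wilson intervals of the summed reads), by group on the x axis, with bars at the means of groups that have replicates. Nesp and the exon 1A core were below 15% in the 9 iPSC libraries and above 24% in MEF and SSEA1 cells, Nespas/Gnasxl spread from 11.6% to 54.3% among iPSCs, and Gnas exon 1 stayed under 3%.

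The Nespas/Gnasxl window behaved otherwise. It was at 54.3%, 50.4% and 51.8% in male iPSC 1, 2 and 4, and at 30.4% and 43.7% in MEF 4 and 5. All 3 male iPSC libraries lay above both MEF libraries, an order that 13% of all tiles shared, with a mean of 52.2% ± 1.94 (SD, n = 3) against 37.1% ± 9.42 (SD, n = 2). The difference of 15.1 points had an exact two-sided permutation p of 0.1, the smallest that 10 splits allow, so this design could not pass 0.05. On the 24 CpGs of the window read in all 13 libraries it was 7.10 points (exact permutation p = 0.2), and without MEF 4 it was 8.43. None of its 3 tested tiles passed the limma-moderated model, with differences of -3.08, 14.9 and 11.2 points at the tiles beginning at 174122001, 174123001 and 174125001 (adjusted p = 0.526, 0.543 and 0.657).

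The windows differed in how they stood to each other. Within a library, Nespas/Gnasxl exceeded the exon 1A window by 52.8, 47.8 and 49.3 points in male iPSC 1, 2 and 4, and by 10.1 and 18.97 points in MEF 4 and 5. The mean gap was 49.96 ± 2.53 points (SD, n = 3) in male iPSCs and 14.6 ± 6.26 (SD, n = 2) in MEF. This difference of 35.4 points again had the smallest exact permutation p possible, 0.1. With all 9 iPSC libraries the gap was 33.5 ± 18.1 points (SD, n = 9; exact permutation p = 0.327 against MEF), and the female libraries lay at separate levels.

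Among the 9 tested tiles of the cluster, 4 were lower and 0 higher in male iPSCs than in MEF, namely the 3 Nesp tiles and the exon 1A tile. In the genome 21.0% of tiles were lower in that comparison and 5.38% higher. The same 4 tiles were lower and 0 higher in XO than in MEF, where 20% of all tiles were lower and 5.93% higher. XaXa against MEF added the tile beginning at 174125001 to the lower ones and had 0 higher, where 63.9% of all tiles were lower and 0.793% higher. The 3 comparisons share the MEF libraries and are not independent. Without MEF 5, whose X and Y depth went against its label, only the tiles beginning at 174112001 and 174154001 remained called in male iPSCs and in XO, and in XaXa these and the one at 174111001. The median difference of the 9 tiles in male iPSCs against MEF was -3.08 points, beside -3.24 over all tiles.

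The comparison of XaXa with male iPSCs asks whether the cluster was lower in the libraries labelled XaXa. The groups also differ in sex, so the part of a pair of active X chromosomes cannot be told apart. Nespas/Gnasxl was lower in both XaXa libraries. The Nesp segment and the exon 1A core were already low in male iPSCs and differed by less than the SD of the male group. Nespas/Gnasxl was at 21.9% in XaXa 7 and 18.2% in XaXa 8, both below every male iPSC library, as in 61.1% of all tiles. Their mean was 20.01% ± 2.63 (SD, n = 2), and the difference from male iPSCs was -32.2 points (exact two-sided permutation p = 0.1, the smallest possible). Beside it, the autosomes as a whole were at 37.6% and 24.7% in XaXa and 49.5% to 54.4% in male iPSCs. Relative to the autosomal level of the same library, Nespas/Gnasxl was at 0.582 and 0.736 in XaXa and at 0.928 to 1.04 in male iPSCs (exact permutation p = 0.1). Of 83 CpGs in this window with at least 10 reads in XaXa 8, 52 were below 20% and 31 between 20% and 80%, where male iPSC 4 had 1 of 77 below 20% and 73 between.

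Of the cluster's 9 tiles, 2 were lower in XaXa than in male iPSCs and 0 higher, against 58.2% of all tiles lower and 0.111% higher. They were the Nespas/Gnasxl tiles beginning at 174123001 (-38.8 points, limma-moderated model, adjusted p = 0.00112) and 174125001 (-28.7 points, adjusted p = 0.00155). Both calls rested on XaXa 8, the deepest library: without it the differences were -39.3 and -25.5 points at an adjusted p of 0.133 and 0.337. The median difference over the 9 tiles was -0.491 points, against -18.8 over all tiles, with 6 of the 9 at levels under 10% in male iPSCs. At the Nesp segment XaXa averaged 5.15% ± 1.66 (SD, n = 2), beside 4.39% ± 1.52 (SD, n = 3) for male iPSCs (exact permutation p = 0.7). The exon 1A core averaged 5.23% ± 0.534 (SD, n = 2) in XaXa. For male iPSCs it averaged 5.97% ± 1.35 (SD, n = 3), with an exact permutation p of 0.8.

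The stretches outside the imprinted windows were lower in XaXa as well. Between the windows, XaXa were at 46.9% and 39.3%, XO between 79.2% and 85.0%, and male iPSCs between 73.4% and 79.7%. After Gnas exon 1, in its downstream part, XaXa were at 59.9% and 46.3%, XO between 72.9% and 83.3%, and male iPSCs between 54.7% and 72.9%, so XaXa 7 overlapped the male group there. MEF were at 52.2% and 69.5% between the windows, and at 89.4% and 92.0% downstream. These stretches hold few CpGs and no tile of them was tested.

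The libraries labelled XO did not share a level at Nespas/Gnasxl. XO 3 and XO 5 were at 17.2% and 11.6%, near the XaXa libraries, and XO 6 and XO 9 were at 50.8% and 46.99%, near male iPSCs. On CpGs read in all 13 libraries XO 3 and 5 were at 23.7% and 15.9%, beside 15.5% and 20.8% in XaXa 7 and 8. XO 9 was at 41.2% on these CpGs, below the male iPSC libraries (43.98% to 48.2%). As an unweighted mean over CpGs with at least 5 reads it was at 32.7%, nearer to XaXa 7 (28.8%) than to the lowest male iPSC library (44.6%). The place of XO 9 thus depended on the weighing. With equal weight to each tile XO 3 was at 7.49%. The 95% Wilson intervals of XO 3 (14.4 to 20.4) and XO 9 (39.9 to 54.2) were far apart even though XO 9 had only 183 reads in the window. The group mean of 31.7% ± 20.1 (SD, n = 4) therefore described none of its libraries. Against male iPSCs the difference was -20.5 points (exact two-sided permutation p = 0.2), and that of XaXa minus XO was -11.7 points (exact permutation p = 0.533). The order held at single tiles: at the one beginning at 174125001, XO 3, 5, 6 and 9 were at 11.4%, 9.71%, 48.1% and 41.1%, and at 174123001 at 32.4%, 17.7%, 58.5% and 68.4%. Of CpGs with at least 10 reads, 41 of 49 were below 20% in XO 5, and 80 of 86 were between 20% and 80% in XO 6.

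X depth and autosomal levels of the 4 libraries stood as follows. The low libraries XO 3 and 5 had an X depth of 1.34 and 1.21, and the high libraries XO 6 and 9 had 1.02 and 1.38. Autosomal levels were 57.1% and 50.8% in XO 3 and 5, and 49.9% and 48.2% in XO 6 and 9. Both low libraries thus had a higher autosomal level than both high ones, while their X depths lay between those of XO 6 and XO 9. The part of X depth, of the Pou5f1 levels or of the autosomal level in these values was not tested. At the Nesp segment and the exon 1A core the same 4 libraries stayed within 4.90% to 9.81% and 4.17% to 14.1%. In the limma-moderated model 0 of the 9 tiles differed between XO and male iPSCs in either direction, with 1 at an unadjusted p under 0.05 and 0.0465% and 0.334% of all tiles called lower and higher. Without XO 6 the tiles beginning at 174123001 and 174125001 were lower in XO, with differences of -20.3 and -26.7 points (adjusted p = 0.0278 and 0.0273). Between XaXa and XO 1 of 9 tiles was lower in XaXa (174123001, -23.2 points, adjusted p = 0.00134) and 0 higher, where 62.8% of all tiles were lower and 0.0222% higher. That call was lost without XaXa 8 (adjusted p = 0.228) and without XO 6 (adjusted p = 0.469).

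**Figure D3:**
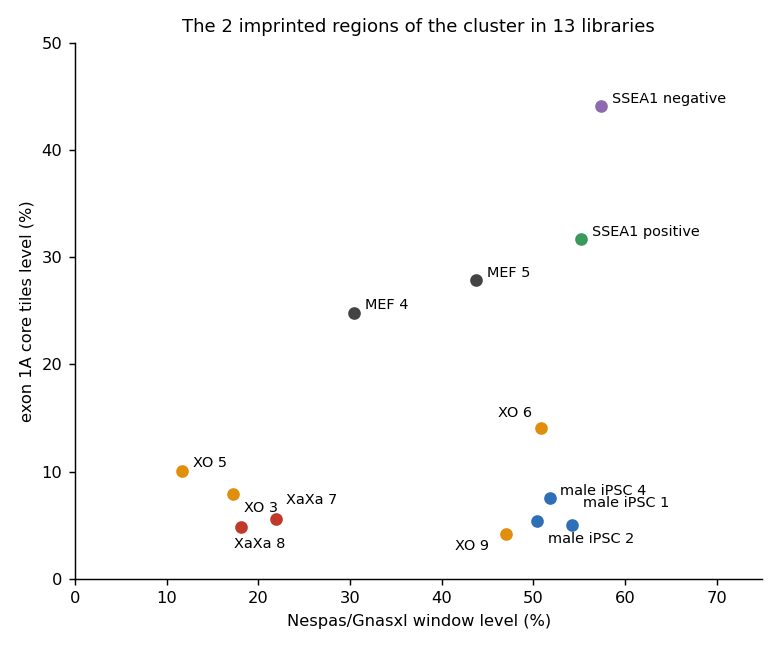
Level of the exon 1A core (%, y axis) against that of the Nespas/Gnasxl window (%, x axis), 1 point per library. All 9 iPSC libraries lay under 15% on the y axis and fell on the x axis into a set at 11.6% to 21.9% (both XaXa, XO 3 and XO 5) and a set at 46.99% to 54.3%, while MEF and SSEA1 libraries lay above 24% on the y axis. The place of XO 9 on the x axis depended on the weighing, with 32.7% as an unweighted mean over CpGs with at least 5 reads.

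Of the best-read single CpGs at Nespas/Gnasxl, some had the same libraries low and others did not. The CpG at 174125552 was at 11.9% and 13.5% in XaXa 7 and 8, from 42 and 267 reads. It was at 7.14%, 4.55%, 36.3% and 38.5% in XO 3, 5, 6 and 9, and at 41.3%, 28.6% and 32.9% in male iPSC 1, 2 and 4. MEF 4 was at 5% and MEF 5 at 46.2%, so the MEF libraries differed from each other more at this CpG than over the window. At 174125583 XaXa were at 7.50% and 17.4%, XO at 6.06%, 9.09%, 33.1% and 22.2%, male iPSCs at 37.3%, 12.5% and 29.9%, and MEF 4 and 5 at 10% and 53.9%, so male iPSC 2 lay below XaXa 8 there. At 174122508 the libraries had only 2 to 55 reads. XaXa 8, XO 6 and male iPSC 4, the best read, were at 33.3%, 33.3% and 34.5%. With 5 to 26 reads, XaXa 7 was at 6.67%, XO 3, 5 and 9 at 14.3%, 7.69% and 0%, and male iPSC 1 and 2 at 36.8% and 14.3%. At the Nespas/Gnasxl sequence shown above, XaXa averaged 26.8% and male iPSCs 56.2%, though the least covered library had 2 reads there. XO lay between 50% and 68.3% over these 3 CpGs, so XO 3 and XO 5 were not low there.

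The sorted cells, with 1 library each and therefore no test, were above MEF in several stretches. At Nespas/Gnasxl the SSEA1 negative library was at 57.4% (95% Wilson interval 52.8 to 61.9) and the positive one at 55.2% (51.1 to 59.2). At the exon 1A core they were at 44.1% (40.9 to 47.2) and 31.7% (28.8 to 34.7), and at the Nesp segment at 36.01% (31.8 to 40.5) and 49.8% (45.98 to 53.6). Neither library approached the low iPSC levels at Nesp or exon 1A. The order of both libraries at Nesp and exon 1A depended on how CpGs were weighed. On CpGs read in all 13 libraries the Nesp segment was at 45.6% in the negative and 40.2% in the positive library, the reverse of the order above. As an unweighted mean over CpGs the exon 1A core was at 41.2% and 41.6%.

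To see how the cluster stood among other imprints, 8 regions methylated in the oocyte were set beside it (Mcts2, Nap1l5, Grb10, Zrsr1, Airn/Igf2r, Snrpn, Peg13 and Plagl1). In male iPSCs their means ranged from 38.6% to 66.2%, and Nespas/Gnasxl lay among them, above 3 and below 5. The exon 1A core, at 5.97%, and the Nesp segment, at 4.39%, were below all 8. In MEF the 8 ranged from 21.2% to 89.8%, with the exon 1A core above 1 of them and the Nesp segment and Nespas/Gnasxl above 2. The lowest, Plagl1, was at 0% in MEF 4 from 29 reads and at 42.3% in MEF 5 from 52. The highest, Nap1l5, had 37 and 102 reads in MEF 4 and 5, so these ranks are uncertain. In XaXa Nespas/Gnasxl was above 6 of 8, whose median was 11.1%. By library, Nespas/Gnasxl was at 17.2%, 11.6%, 50.8% and 46.99% in XO 3, 5, 6 and 9, where the medians of the 8 windows were 10.2%, 12.9%, 42.9% and 20.2%. In XO 9 Nespas/Gnasxl was above the highest other window, Peg13 at 39.4%, but that level came from 33 reads. The 8 windows had only 14 to 193 reads in XO 9. As an unweighted mean over CpGs with at least 5 reads its Nespas/Gnasxl level was 32.7%, so this order is uncertain.

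**Figure D4:**
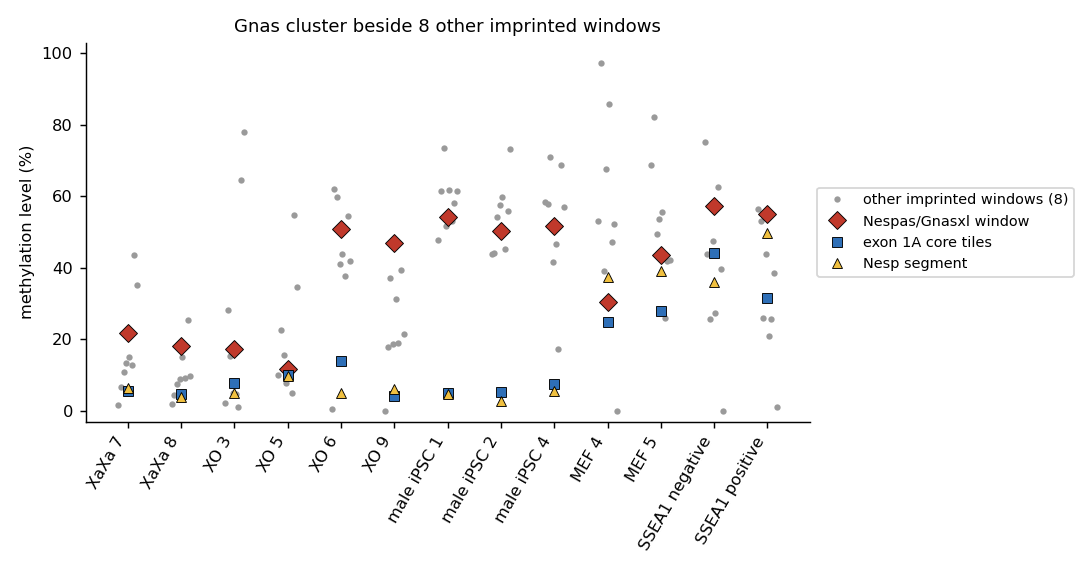
Methylation level (%, y axis) of the Nespas/Gnasxl window, the exon 1A core, the Nesp segment and 8 other imprinted windows in each library (x axis). In the male iPSC libraries the exon 1A core and the Nesp segment lay under the other windows, whose lowest was at 17.4%, while Nespas/Gnasxl lay among them.

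The pattern of each stretch over the 13 libraries was also compared with 41506 tiles elsewhere, by the mean absolute difference in level over the libraries. No tile came within 5 points of Nespas/Gnasxl, and 6 came within 10. The nearest, on chromosome 7 from 6605001 to 6606000, differed by 8.15 points, with means of 24.2% in XaXa, 41.8% in XO, 59.4% in male iPSCs and 46.8% in MEF. The next were on chromosome 7 at 82454001 (8.19 points), chromosome 6 at 145126001 (9.33), chromosome 15 at 57627001 (9.80) and chromosome 7 at 107191001 (9.94). The Nesp segment had 161 tiles within 5 points, 0.388% of those compared, the nearest on chromosome 7 at 19949001 (2.05 points) and 134358001 (2.43), chromosome 13 at 113229001 (2.50), chromosome 11 at 102439001 (2.57) and chromosome 8 at 90184001 (2.57). The exon 1A window had 690, or 1.66%, led by chromosome 17 at 45756001 (1.34 points), chromosome 11 at 75096001 (1.35), chromosome 1 at 193008001 (1.39), chromosome 11 at 69468001 (1.40) and chromosome 8 at 73929001 (1.41). The counts of the 3 stretches cannot be set against each other, since tiles at low levels have less counting spread than intermediate ones and come within a fixed distance more readily.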

How the data were processed

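Genomic DNA of 13 libraries was read by RRBS. For each CpG with reads, the tables deposited by the authors give counts of all and of methylated reads, not normalised, and a methylated fraction, which equals their ratio and was not used further. Per the submitters' processing notes the aligner was BSMAP and the build mm9; for its version and for trimming the sources used here give nothing. RRBS reads start at cut sites, so copies made by PCR cannot be told apart, and intervals cover counting error only. A read over several CpGs counts at each, which makes intervals too narrow. Total reads ranged from 4784488 (XO 9) to 143148634 (XaXa 8).

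Counts were summed over windows and 1 kb tiles. Window levels of libraries were compared by an exact two-sided permutation test. Tiles with at least 20 reads in each of 11 libraries (45146, of which 9 of the 39 with reads in the cluster) were fitted by group means in a quasi-binomial model. Its dispersion was moderated with limma 3.58.1 (at least 1), and F test p-values were adjusted by Benjamini-Hochberg. A tile was called at an adjusted p under 0.05 and at least 10 points. On simulated data 5%, 4% and 8% of tiles changed by 20 points, and 78.5%, 82.5% and 81.5% of those changed by 40 points, were recovered for male iPSC, XO and XaXa against MEF over 45146 tiles. The changes were reductions set only in tiles at intermediate to high pooled levels. These rates therefore do not describe the cluster tiles called against MEF, whose pooled levels were lower. For XaXa against XO 682 of 44946 unchanged tiles were called beside the 40 point changes, since deep libraries weigh most. A fit with effective read numbers, which called 63 there, was therefore added after seeing the data.

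The members, windows and lists were chosen with earlier results of these data known. The rule named the windows, the other segments, tiles with at least 20 reads in all 13 libraries or called, the 3 best-read CpGs of each window and the 5 tiles most like each. The exon 1A core and the tests of it and of the Nesp segment were added after seeing the data. The 8 other imprinted windows were placed from general knowledge, not an annotation. RefSeq promoters were placed in mm9 by their CpGs. The software was R 4.3.3, scipy 1.17.1, pandas 2.3.3, numpy 2.4.6 and Python 3.11.15.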

Additional observations from a re-analysis of the deposited data

Results flagged for a closer look

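The SSEA1 sorted libraries, which enter no test, had levels above the upper 95% Wilson bound of both MEF libraries in several stretches. The Nespas/Gnasxl window was at 57.4% in SSEA1 negative and 55.2% in SSEA1 positive cells. The exon 1A window was at 35.2% in SSEA1 negative cells, and its core at 44.1%. The Nesp segment was at 49.8% in SSEA1 positive cells. MEF were at 30.4% and 43.7%, 20.3% and 24.8%, 24.8% and 27.9%, and 37.4% and 39.0% in these 4 stretches. The Nespas/Gnasxl values stood nearer to MEF 5 on CpGs read in all 13 libraries. They were 46.9% and 47.1% in SSEA1 negative and positive cells there, beside 33.3% and 44.8% in MEF 4 and 5. The Nesp and exon 1A window values did not stand above MEF under every weighing. On CpGs read in all 13 libraries Nesp was at 40.2% in SSEA1 positive cells and at 46.9% and 39.5% in MEF 4 and 5. With equal weight to each 1 kb tile the exon 1A window was at 22.2% in SSEA1 negative cells, below the 32.6% and 42.6% of MEF 4 and 5. These MEF means took in tiles at 100% from 6 reads in MEF 4 and from 12 and 8 in MEF 5. In those tiles SSEA1 negative cells had 0 reads. Over the exon 1A core alone the same weighing gave 44.3% in SSEA1 negative cells and 28.6% and 27.3% in MEF 4 and 5. With 1 library per sort these values describe the libraries, and the difference from MEF was not tested.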

How the results depend on the processing

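The lower Nesp and exon 1A levels of iPSCs against MEF kept their direction under every alternative, as did the lower Nespas/Gnasxl level of XaXa against male iPSCs. With XO 3, 5 and 9 and MEF 5 left out, an alternative added once the data had been seen, all iPSCs minus MEF was -17.9 points in the exon 1A window, -32.6 in the Nesp segment and -17.8 in the exon 1A core, but an exact permutation p could then not go below 0.143. Leaving out each library, these differences ran from -22.3 to -17.9, from -33.5 to -31.9 and from -20.7 to -17.6 points, and without either MEF library p could not go below 0.1. The Nespas/Gnasxl difference between all iPSCs and MEF had no stable sign: it ran from -7.83 to 5.50 points with a library left out, and was 4.15 without XO 3, 5 and 9, 10.8 without these and MEF 5, 0.327 as an unweighted mean over CpGs with at least 5 reads and 0.108 relative to the autosomal level. That scaling also turned XaXa minus XO at Nespas/Gnasxl (0.0281), the exon 1A window (0.00524), the Nesp segment (0.0384) and the gap between windows (0.0229), and XaXa minus male iPSC at the exon 1A window (0.0194) and core (0.0574). With equal weight to each tile, a choice added later, the exon 1A window gave 1.97 points for XaXa minus XO and 2.27 for XaXa minus male iPSC, and Nesp -0.881 for the latter. In that exon 1A setting XaXa 7 was at 9.91%, taking in a tile at 33.3% from 6 reads, and XaXa 8 was at 2.52%. Nesp XaXa minus XO was 0.249 points without XO 3, 5 and 9. Leaving out libraries, XaXa minus male iPSC ran from -0.417 to 1.93 points at Nesp and from -1.21 to 0.0296 at the exon 1A core.

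With 1 library left out, the counts of called tiles ran from 0 to 2 for each comparison between iPSC groups, from 2 to 4 for male iPSC against MEF, from 2 to 6 for XO against MEF and from 3 to 6 for XaXa against MEF. At least 50 reads per tile left 2 tiles of the cluster to test, with 1 called for XaXa minus male iPSC and for XaXa minus MEF, and 0 for XaXa minus XO and for male iPSC or XO minus MEF. With limma on log2 ratios 1 was called for XaXa minus male iPSC and 0 for XaXa minus XO. Counting differences beyond the median of all tiles gave 0, 1 and 1 for XaXa against XO, male iPSC and MEF. Effective read numbers gave 0 for XaXa against XO. For the other reversals and lost calls the cause was not tested. No paired analysis was possible because the groups compared share at most 1 replicate number. Depth limits XO 9 most.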
